A study of Mus musculus with 4 samples.

Results

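Vascular smooth muscle cells of the mouse thymus were examined in 4 droplet-based 3′ single-cell RNA-seq libraries of CD45- stromal cells. The cells were selected on their own transcripts. A cell was taken when it had at least 5 unique molecules (UMIs) of Acta2, at least 2 of Myh11 and at least 1 of Tagln. It also had to have 0 UMIs of each of Pdgfra (fibroblasts), Epcam (epithelium), Pecam1 (endothelium) and Ptprc (haematopoietic cells). Of 10245 cells with over 1000 genes detected and a mitochondrial share below 20%, out of 13981 called barcodes, 438 met this rule. The mice were untreated C57BL/6 animals of 6 months. Both groups belong to the Foxn1LacZ line. Libraries WT 1 and WT 2 are from the mock group with wild-type genotype. Libraries Z/Z 1 and Z/Z 2 are from mutants with LacZ on both Foxn1 alleles, a hypomorphic state that lowers this factor early in thymic epithelial cells. Foxn1 is a transcription factor of the thymic epithelium. The protocol describes pools of 10-15 thymi, enzymatic digestion, depletion of CD45+ cells and sorting, and nothing in the labels gives the 2 libraries of a group separate pools, so p-values measure the spread between libraries, which may be technical. The sex is male in the sample labels and female in the protocol.

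Smooth muscle cells wrap arteries, arterioles and veins and set vessel tone. Calcium that enters through voltage-gated channels, or leaves internal stores, activates myosin light chain kinase (Mylk), and phosphorylated myosin then pulls on smooth muscle actin (Acta2). Cyclic GMP and its kinase (Prkg1) oppose contraction. Pericytes are the related mural cells of capillaries, and the 2 cell types form a continuum along the vessel. In the thymus, mural cells also line the vessels through which progenitors enter and mature T cells leave.

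The 438 cells were unevenly spread. WT 1 held 45 of them, WT 2 held 2, Z/Z 1 held 235 and Z/Z 2 held 156. Values below follow the order WT 1, WT 2, then Z/Z 1, Z/Z 2. The UMIs of these cells summed to 444070, 17079, 1950882 and 1006635, so that 1 UMI stands for 2.25, 58.6, 0.513 and 0.993 CPM (UMIs of a gene per 1000000 UMIs of the summed cells). WT 2 therefore gives little more than the presence of abundant transcripts, and every comparison of the genotypes rests in the main on WT 1 against the 2 Z/Z libraries. The median depth per smooth muscle cell was 9709, 8539.5, 7853 and 6107 UMIs. WT 1 and WT 2 shared 202 called barcodes and the Z/Z libraries shared 249, against 0 to 6 between genotypes. Only 2 of the 438 cells carried a shared barcode. Among the 3.9% of cells with the highest doublet scores in each library were 9 of the 438.

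As a share of kept cells, WT 1 held 2.97% smooth muscle (95% exact binomial interval 2.17 to 3.95) and WT 2 held 0.422% (0.0511 to 1.52). The share was 5.07% for Z/Z 1 (4.46 to 5.74), while Z/Z 2 reached 4.31% (3.67 to 5.03). These intervals cover counting error only. Both Z/Z libraries lay above both WT libraries. The WT mean was 1.69% ± 1.80 (SD, n = 2) and the Z/Z mean 4.69% ± 0.535 (SD, n = 2). They differed by 3.0 percentage points with a two-sided exact permutation p of 0.33, which is the smallest that 2 against 2 libraries allow. Shares of cells also depend on digestion, on the sort and on the other cells caught. The filter that sets the denominator kept 55.5% and 39.8% of called barcodes in WT 1 and WT 2. In Z/Z 1 and Z/Z 2 it kept 83.4% and 80.4%. Against endothelial cells of the same libraries (Pecam1 and Cdh5 UMIs), the order was lost: WT 1 had 53.6 smooth muscle cells per 100 endothelial cells, WT 2 had 12.5, Z/Z 1 had 37.5 and Z/Z 2 had 31.6 (exact permutation p = 1). The rule itself removed cells unequally. Another 6, 1, 1 and 24 cells missed it by a single Ptprc UMI, and the summed level of thymocyte markers in uncalled, near-empty droplets was 2461, 4334, 228 and 1092 CPM. With 1 UMI of each excluded gene allowed, the shares were 3.82%, 1.27%, 5.76% and 5.86%.

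**Figure D1:**
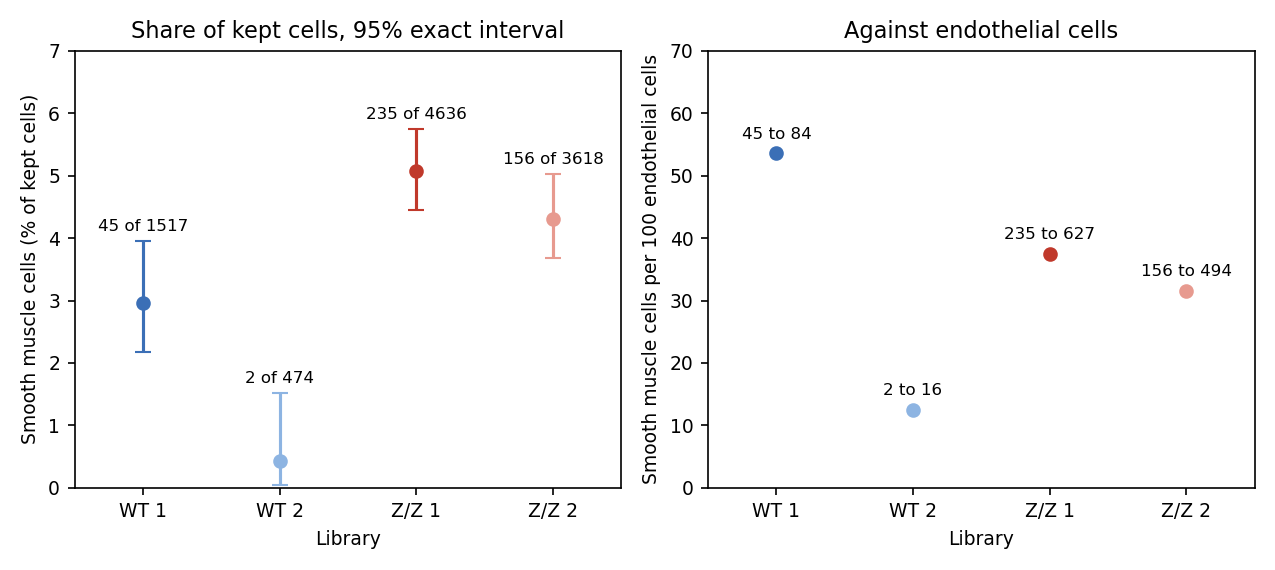
Smooth muscle cells in each library, as a percentage of kept cells with 95% exact binomial intervals (left) and per 100 endothelial cells (right). Both Z/Z libraries lie above both WT libraries on the left, whereas on the right WT 1 is highest at 53.6 and WT 2, with 2 cells, lowest at 12.5.

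Acta2, Myh11 and Tagln chose the cells, so their levels are a description. Acta2 (chromosome 19, 34241090 to 34255590 of GRCm38, minus strand) stood at 6839, 5562, 7921 and 7964 CPM. Myh11, the smooth muscle myosin heavy chain on chromosome 16 (14194535 to 14291372, minus strand), stood at 3736, 2986, 3678 and 3539 CPM, and Tagln, the actin-binding transgelin on chromosome 9 (45929619 to 45936058, minus strand), at 6285, 3923, 6226 and 7472 CPM. Each marker was lowest in WT 2. The fourth marker, Myl9, was not used by the rule. It encodes the regulatory light chain of smooth muscle myosin (chromosome 2, 156775420 to 156781658, plus strand), and its median was 20 UMIs per cell in WT 1 (range 4 to 94), 22 for Z/Z 1 (0 to 174) and 19 for Z/Z 2 (2 to 113). The 2 cells of WT 2 had 7 and 23. Over the 4 libraries Myl9 averaged 485 CPM in pericytes, 40.3 in endothelial cells and 15.3 in fibroblasts, against 3017 in the smooth muscle cells.

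Summed markers of other cell types were low, though single cells carried more. The 4 excluded genes are at 0 by the rule. Beyond these, the other fibroblast markers summed to 336, 0, 254 and 527 CPM (14 markers in all), with Dcn at 131, 0, 100.0 and 192 CPM where fibroblasts averaged 10580. Fibroblast markers were uneven between cells: in cells thinned to 3000 UMIs the median was 0 in WT 1, Z/Z 1 and Z/Z 2, but the highest cell had 37, 25 and 29 such UMIs. The part of these cells in the results was not tested. The 12 endothelial markers summed to 117, 0, 136 and 139 CPM, and all but a small part was Esam, a junction protein that mural cells also make (83.4 CPM on average). The 12 epithelial markers gave 79, 0, 65 and 109 CPM, the 12 thymocyte markers 68, 59, 8 and 111, the 11 myeloid markers 79, 59, 42 and 57, the 10 Schwann cell markers 9, 0, 12 and 17, and the 8 mesothelial markers 2, 0, 22 and 13. Of the 13 markers of skeletal myoid cells, the muscle-like cells of the medulla, 9 had 0 UMIs, among them Myog, Myod1 and Ckm. The cardiac list summed to 457, 410, 459 and 437 CPM, but Myh7, Tnnt2 and Myl7 were at 0 and the sum came from Pln and Ryr2, which smooth muscle also uses. Actg2, the actin of visceral smooth muscle, reached 9.01, 58.6, 26.1 and 22.9 CPM.

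Genes of the contractile apparatus were abundant in the smooth muscle cells of every library. The 29 genes of that list, gate genes included, took 47965, 39756, 50025 and 53803 CPM, against 1513 to 6065 CPM in near-empty droplets and 5996 to 9558 CPM in pericytes. Part of this contrast was set in advance, since Acta2, Tagln and Myh11 chose the cells and pericytes had to fail the same rule. The rule did not use Tpm1, Tpm2, Mylk, Lmod1 and Cnn1, which averaged 601, 166, 340, 69.9 and 0 CPM in pericytes. Tpm1 and Tpm2 are tropomyosins that lie along the actin filament. Tpm1 had 3065, 4391, 3210 and 3294 CPM, and Tpm2 had 3067, 1815, 3330 and 3794 CPM. Mylk, the kinase that starts contraction, had 2229, 1874, 2106 and 2025 CPM. Lmod1, which nucleates actin filaments, had 522, 351, 377 and 511 CPM, and Cnn1, the calponin of mature smooth muscle, 135, 0, 152 and 160 CPM. For Tpm1, Mylk and Lmod1 the WT and Z/Z libraries overlapped. For Tpm2 and Cnn1 both Z/Z libraries lay above both WT libraries, as they did after normalisation for 30.2% of all genes tested. The 0 of Cnn1 in WT 2 comes from a library where 1 UMI stands for 58.6 CPM. Neither gene was called between genotypes (edgeR adjusted p = 0.673 for Tpm2 and 0.954 for Cnn1).

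**Figure D2:**
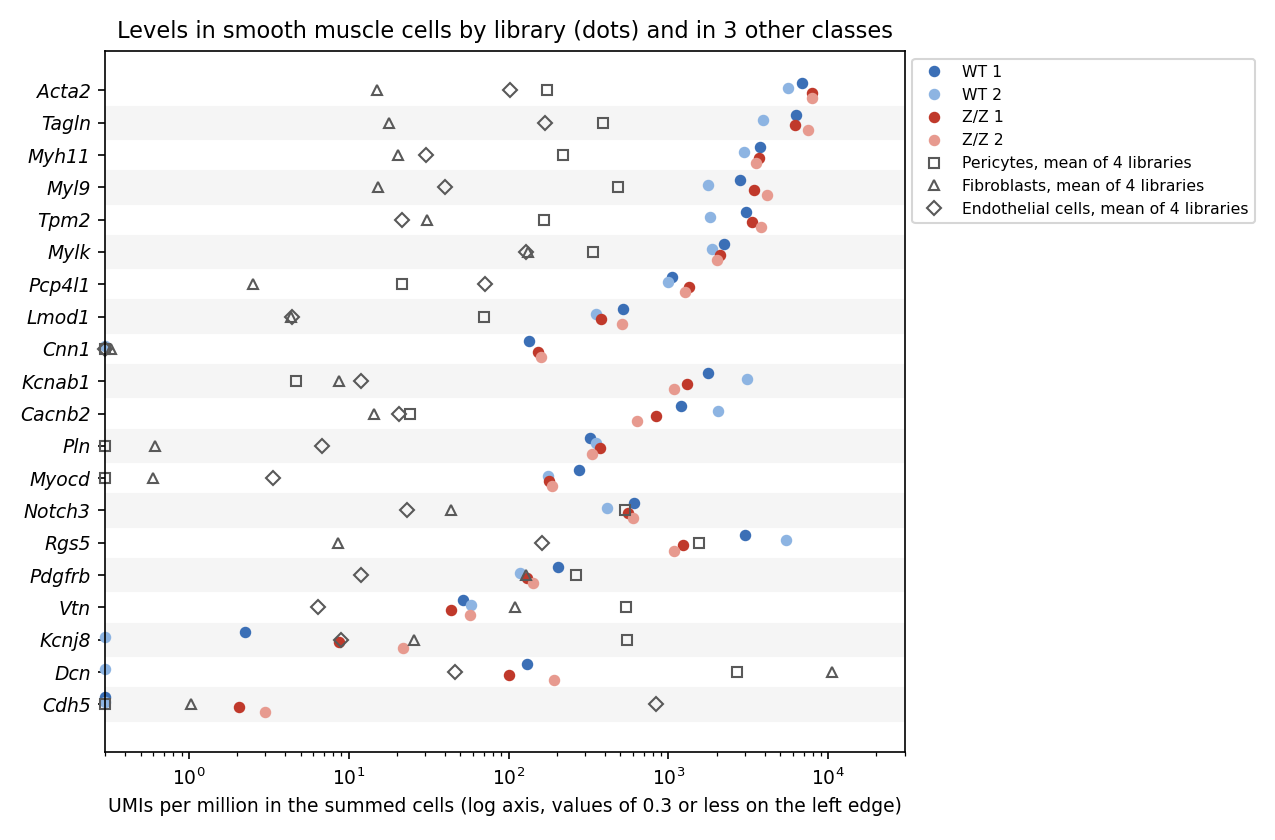
Level of 20 genes in smooth muscle cells of each library (dots) and, as the mean of 4 libraries, in pericytes, fibroblasts and endothelial cells (open symbols), in CPM on a log axis. Contractile genes lie far to the right of the 3 other classes in every library but for Cnn1 in WT 2 (0, on the left edge), Notch3 is level with pericytes, and Rgs5 is higher in the 2 WT libraries (3011 and 5445) than in the 2 Z/Z libraries (1229 and 1085). Of the contractile genes, Acta2, Tagln and Myh11 chose the cells.

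Contractile genes are classical targets of serum response factor and its partner myocardin, which bind a motif known as the CArG box. Myocd itself, the gene of myocardin, had 275, 176, 179 and 186 CPM in the smooth muscle cells, 0 UMIs in pericytes, and 0.599 and 3.34 CPM in fibroblasts and endothelial cells. Promoter windows of 300 bases (250 before and 50 after each RefSeq start site, GRCm38.p6) were available for 24 of the 29 contractile genes. An exact CArG box on either strand, the motif being its own reverse complement in form, was found in 3 of these 24 genes, 12.5%, against 1.81% of all genes with a window and 1.63% of all windows. The 3 were Myl9, Myl6 and Vcl. The Myl9 window is shown because Myl9 is the marker that the rule did not use. It lies at chr2:156775214-156775513 on the plus strand, and the CArG box, in capitals, begins 161 bases before the start site.

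Myl9: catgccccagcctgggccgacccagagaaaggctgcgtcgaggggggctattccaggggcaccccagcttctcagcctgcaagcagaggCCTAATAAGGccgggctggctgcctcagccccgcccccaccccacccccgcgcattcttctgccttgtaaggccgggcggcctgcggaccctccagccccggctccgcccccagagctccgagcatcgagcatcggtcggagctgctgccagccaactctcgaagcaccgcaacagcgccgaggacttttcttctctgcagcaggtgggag

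Such a match is a description of the sequence and no evidence of binding, and the windows without one say only that these letters are not within them.

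Several genes of membrane excitation were far higher in these cells than in pericytes. Pericytes were taken as kept cells with a UMI of both Kcnj8 and Vtn, without the 4 excluded genes and outside the smooth muscle rule, which gave 4, 1, 74 and 25 cells. Both classes were defined by their genes, so levels between them are described without a test. Kcnab1, an auxiliary subunit of potassium channels, had 1765, 3103, 1307 and 1081 CPM in smooth muscle cells and 4.66 CPM (8 UMIs in all) in pericytes. Cacnb2, the β subunit of the L-type calcium channel, had 1196, 2049, 841 and 632 CPM against 24.2, whereas the pore subunit Cacna1c was high in both classes (1128 against 1523 CPM on average). Pln, phospholamban, the brake of the calcium pump of the internal store, had 324, 351, 374 and 332 CPM and 0 UMIs in pericytes. Kcnmb1, the β subunit of the large-conductance potassium channel, also had 0 UMIs in pericytes, against 65.3, 234, 56.9 and 72.5 CPM, the value of WT 2 being 4 UMIs. Kcna5 and the calcium release channel Ryr2 had 0 UMIs in pericytes too, against 33.8 and 90.7 CPM on average. The remaining genes with the highest ratio of smooth muscle to pericyte level were Rgs7bp (517 against 1.16 CPM), Sorbs2 (790 against 8.57), Trmt61b (456 against 1.75), Slc6a17 (391 against 2.17), Thsd4 (548 against 8.25), Cabp1 (414 against 6.66), Pcp4l1 (1162 against 21.6), the laminin Lama5 (277 against 0) and Cndp1. Cndp1 owes its place to 17 UMIs in WT 2 and had 0, 5 and 2 UMIs in WT 1, Z/Z 1 and Z/Z 2.

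Pericyte genes were divided between the classes. Kcnj8 and Abcc9, the 2 subunits of the pericyte ATP-sensitive potassium channel, averaged 8.21 and 23.6 CPM in smooth muscle cells and 554 and 1115 CPM in pericytes. Vtn, like Kcnj8, chose the pericytes and had 52.9 CPM against 539. Notch3, the receptor through which endothelium instructs mural cells, was at a like level in both (545 against 534 CPM), and Cspg4 was higher in smooth muscle (171, 586, 154 and 155 CPM, the value of WT 2 being 10 UMIs, against 33.0 on average). A Kcnj8 or Vtn UMI was carried by 95 of the 438 cells, namely 14, 1, 47 and 33 by library.

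Receptors for vasoactive agonists included those for endothelin, sphingosine phosphate and neuropeptide Y. Ednra had 345, 703, 438 and 418 CPM, S1pr3 had 374, 703, 416 and 347, and Npy1r had 419, 234, 157 and 246. Ptgir, the receptor of prostacyclin, which relaxes vessels, had 140, 527, 69.2 and 115 CPM. The angiotensin receptor Agtr1a gave 6.76, 58.6, 2.05 and 4.97 CPM, the value of WT 2 being 1 UMI, and Htr2b had 0 UMIs in all 438 cells. Of 25 receptors in the list only 10 were abundant enough to test. The relaxing pathway was well represented. Prkg1 had 3644, 5153, 3538 and 3031 CPM, and the soluble guanylate cyclase subunits Gucy1a1 and Gucy1b1 averaged 751 and 379 CPM, against 15.8 and 10.5 in endothelial cells. Nos3, the endothelial source of nitric oxide, was at 0.248 CPM in smooth muscle and 97.2 in endothelial cells.

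Among Notch genes, the targets Nrip2 (216, 0, 199 and 215 CPM) and Hes1 (414, 644, 354 and 233 CPM) stood beside Notch3. Nrip2 averaged 2.17 CPM in pericytes and 1.79 in endothelial cells, while the ligands Dll1 and Dll4 were at 0 and 0.993 CPM. The ligand Jag1 had 74.3, 176, 47.7 and 59.6 CPM, against 43.4 in pericytes. Of vessel wall matrix, Sparcl1 had 2513, 2284, 2678 and 2658 CPM and Crispld2 had 2142, 3103, 2168 and 2562 CPM, the latter against 144 in pericytes. The 40 matrix genes together took 10302, 11535, 9035 and 9976 CPM, less than the 10241 to 16607 CPM of pericytes for 3 of the 4 libraries when each library is set beside its own pericytes, WT 2 with its single pericyte being the exception. Signals to epithelium and thymocytes were divided. Fgf7, Fgf10, Bmp4 and Il33 had 0.128, 0.497, 0.745 and 6.58 CPM, against 63.5, 219, 87.1 and 988 in fibroblasts. Kitl, the stem cell factor, and Igfbp5 were at like levels in both classes (216 against 225 and 735 against 712 CPM). Smooth muscle cells also carried Fgf1 (363, 117, 455 and 448 CPM), an epithelial growth factor, and Pdgfa (408, 468, 465 and 538 CPM), against 45.6 and 16 CPM in fibroblasts.

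Within a library the cells were not uniform. Each was thinned to 3000 UMIs (14 shallower cells were left out), and the contractile list without the gate genes ranged from 36 to 163 UMIs per cell in WT 1. Its range was 17 to 219 for Z/Z 1, and Z/Z 2 ran from 22 to 227. Across cells, this sum ran against the sum of pericyte markers, with a Spearman correlation of -0.55 in WT 1 (44 cells), -0.51 in Z/Z 1 (230 cells) and -0.37 in Z/Z 2 (148 cells). The cells of a library share its preparation and, after thinning, a fixed total, so that more of 1 transcript leaves less for others. The sum ran with vessel wall matrix (0.31, 0.49 and 0.26 in the same order), showed next to no relation to immediate early and stress genes (-0.01, 0.06 and 0.13), and ran weakly against fibroblast markers (-0.07, -0.26 and -0.33). The pericyte sum is carried in the main by genes that both mural classes express. Rgs5 gave 1337 of its 2509 UMIs in WT 1, and Rgs5, Notch3, Cspg4, Mcam, Gja4, Cox4i2 and Higd1b were on average no lower in smooth muscle cells than in pericytes. Kcnj8 and Abcc9, which were far higher in pericytes, had 2.25 and 9.01 CPM in WT 1.

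**Figure D3:**
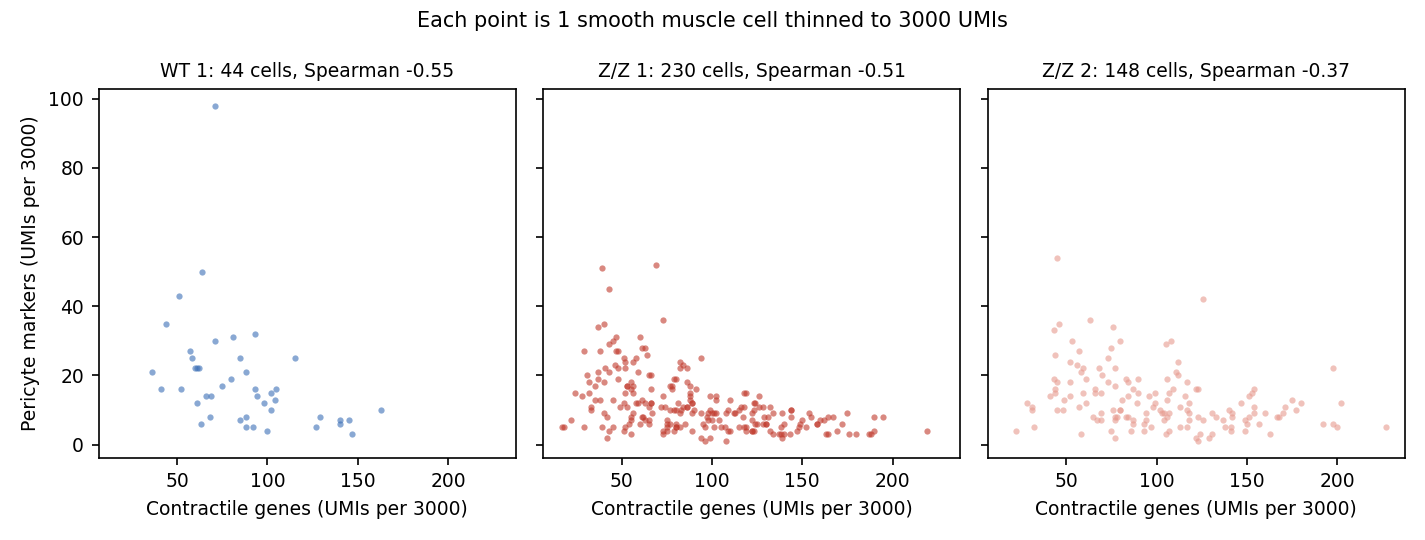
Each point is 1 smooth muscle cell thinned to 3000 UMIs, with the sum of contractile genes (gate genes left out) on the x axis and of pericyte markers on the y axis. In all 3 libraries with enough cells the cells with over 150 contractile UMIs sit low on the y axis, and Spearman's correlation is -0.55, -0.51 and -0.37.

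Single genes along this axis were ranked after their values were seen, among 295 genes with a mean of at least 1 UMI per thinned cell in each of the 3 libraries. Rgs5 ran most strongly against contractile genes, with a Spearman correlation of -0.48, -0.61 and -0.48, followed by Phlda1 (-0.49, -0.43 and -0.34). Running with them were Sorbs2 (0.65, 0.58 and 0.61), the actin Actb (0.63, 0.57 and 0.62), Crip1 (0.41, 0.68 and 0.66) and Vim (0.45, 0.62 and 0.46). Mitochondrial transcripts ran with the sum too (mt-Nd4 at 0.56, 0.49 and 0.58) and the nuclear RNA Malat1 against it (-0.24, -0.25 and -0.24). How far the balance of nuclear and cytoplasmic RNA in a droplet contributes was not tested.

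Cells near the Acta2, Myh11 and Tagln thresholds of the rule had less Myl9 than the members as a whole. The 22 cells just inside at 5 to 7 Acta2 UMIs had 704 CPM of Myl9 and 3926 of Rgs5, where all members pooled had 3528 and 1439. The 19 cells just outside, at 2 to 4 Acta2 UMIs, had 397 CPM of Myl9 and 721 of Rgs5, so that Rgs5 was high just inside and low just outside. The 22 cells at exactly 2 Myh11 UMIs and the 25 just outside at 1 UMI had 1439 and 1183 CPM of Myl9, 320 and 334 CPM of Vtn, and 258 and 475 CPM of Dcn. The 4 members at 1 Tagln UMI had 554 CPM of Myl9, and 3 cells at 0 had 473. Cells that missed the rule by 1 UMI of an excluded gene were closer to the members in Myl9. The 22, 35 and 32 cells with 1 UMI of Epcam, Pecam1 or Ptprc had 3169, 3267 and 3089 CPM. The 3 cells with 1 Pdgfra UMI had 2000 CPM.

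Transcripts were ranked by the ratio of their variance between cells of a library to that of Poisson sampling. The leading ones included Rgs5, Acta2, Tagln and Fos, as well as chemokines and other inducible genes. This ratio grows with the level of a gene, and Acta2 and Tagln also chose the cells. The squared coefficient of variation beyond Poisson sampling was 0.431, 0.373 and 0.291 for Acta2 in WT 1, Z/Z 1 and Z/Z 2. For Dcn it was 22.0, 71.1 and 20.6. The ratio of observed variance to that of Poisson sampling in WT 1, Z/Z 1 and Z/Z 2 was 97.0, 46.5 and 56.2 for the metallothionein Mt1, 36.6, 45.3 and 36.5 for the chemokine Cxcl10, 21.8, 23.5 and 38.5 for Cxcl1, and 21.8, 23.2 and 20.2 for the interferon-induced Iigp1. It was 69.1, 28.3 and 19.2 for Rgs5 and 42.8, 17.2 and 14.1 for Fos. The others of the leading 12 were Gm42418, which overlaps ribosomal RNA, Malat1, Csmd1 and the fibroblast proteoglycan Dcn. Csmd1 had 293, 293 and 471 CPM in these libraries, from a minority of their cells.

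The genotypes were compared on UMIs summed over the smooth muscle cells of each library, with edgeR's quasi-likelihood F test over 6897 genes. Adjusted p-values are Benjamini-Hochberg values over all of these, positive log2 fold changes (± SE) mean a higher level in Z/Z, and levels are CPM after TMM normalisation. At an adjusted p of 0.05, 41 genes were higher in Z/Z (0.594% of those tested) and 14 were lower (0.203%), together 55 (0.797%). For 40 of the 41 both Z/Z libraries lay above both WT libraries, but so did 30.2% of all genes tested, since WT 2 with 2 cells has 0 UMIs for many genes. It had 0 UMIs for 25 of the 41. DESeq2 called 0 genes in either direction, with 89 of 17441 genes at an unadjusted p under 0.05, against 522 of 6897 in edgeR. Without Z/Z 1 no gene was called, and without Z/Z 2 0 were higher and 2 lower; without WT 2, 60 were higher and 36 lower, with the lone WT library assumed to vary like the others.

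Of the 41 higher genes, 29 had a mean of at least 50 CPM and stayed called after subtraction of the near-empty droplet profile. The 12 with the smallest p are described here. Cdk11b, a kinase of transcription and splicing, rose from 191 and 232 CPM in WT 1 and WT 2 to 1286 and 932 in Z/Z 1 and Z/Z 2 (log2 fold change 2.48 ± 0.477, edgeR adjusted p = 0.000203). Sap18, a subunit of histone deacetylase and exon junction complexes, had 104 and 46.3 CPM against 810 and 286 (2.50 ± 0.484, edgeR adjusted p = 0.000203). Emd, the inner nuclear membrane protein emerin, had 598 and 139 against 2552 and 1508 (2.11 ± 0.433, edgeR adjusted p = 0.000669). In each of these 3 genes the WT and Z/Z libraries were apart, with UMIs in all 4 libraries. Z/Z 1 was above Z/Z 2. In WT 2, Cdk11b, Sap18 and Emd had only 5, 1 and 3 UMIs, and 1 cell held 80%, 100% and 100% of them. Sap18 has a near-identical copy, Sap18b, which was also called (0, 1, 150 and 23 UMIs), and how reads were split between the copies is uncertain. Without WT 1, so against these few UMIs of WT 2, the log2 fold changes of Cdk11b, Sap18 and Emd were 2.3, 3.61 and 3.91. Emd was no longer called without cells that carried a Kcnj8 or Vtn UMI (edgeR adjusted p = 0.0765). The same held with cells thinned to 3000 UMIs (edgeR adjusted p = 0.0982). Cdk11b and Sap18 stayed called in both settings.

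The other 9 were Gm20186, Otud1, Ccl11, Ccdc138, Man1b1, Snhg15, Ss18l1, Lmbr1 and Ccrl2. Otud1, a deubiquitinase, had 10.9 and 0 CPM in WT against 207 and 75.8 (3.8 ± 0.683, edgeR adjusted p = 4.645e-05). Ccrl2, an atypical receptor for chemerin, had 98.3 and 0 against 507 and 263 (2.14 ± 0.469, edgeR adjusted p = 0.00207). The eotaxin gene Ccl11 had 8.19 and 0 against 63.9 and 195, but 1 cell held 40% of its UMIs in Z/Z 1 and 37.6% in Z/Z 2, and pericytes averaged 1867 CPM. With the stricter gate its log2 fold change went from 3.99 to 2.57 and it was no longer called (edgeR adjusted p = 0.186). Gm20186, a long non-coding RNA, had 38.2 and 92.6 against 561 and 176, and its log2 fold change of 3.12 fell to 2.05 without WT 1 and to 1.85 without Z/Z 1. For 8 of the 9, all but Gm20186, WT 2 had 0 UMIs, and in the cells of WT 1 the counts behind them ran from 3 UMIs for Ccl11 to 36 for Ccrl2. Without WT 1, which leaves 0 UMIs in WT, the fitted changes of Otud1, Ccl11 and Ccrl2 became 9.81, 9.59 and 11.23, values that depend on the prior count.

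**Figure D4:**
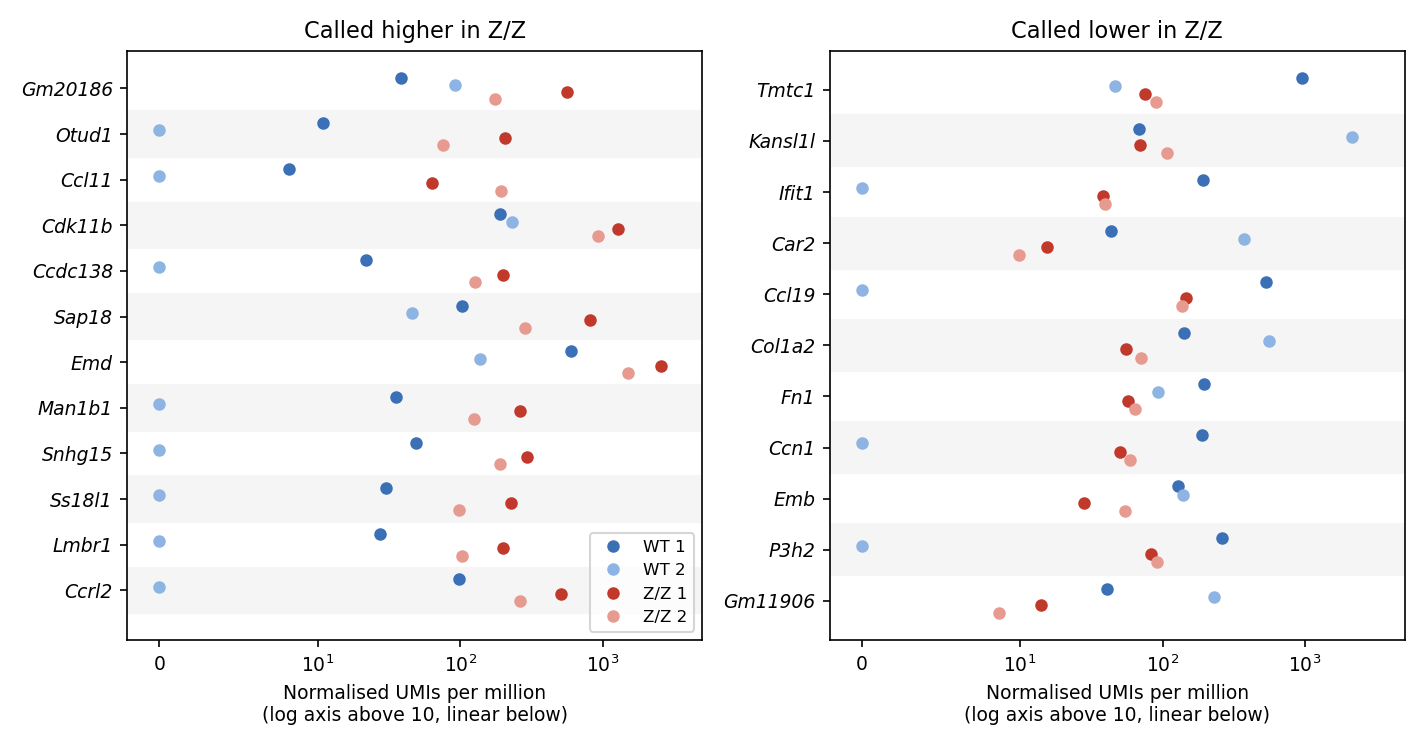
Level in each library, in TMM-normalised CPM, of the 12 genes called higher (left) and the 11 called lower (right) in Z/Z that the text names, on an axis that is linear below 10 and logarithmic above. On the left both Z/Z libraries lie to the right of both WT libraries for every gene shown; on the right this holds in reverse for 5 of the 11, and WT 2 lies at 0 for another 4.

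Several genes called lower rested on 1 cell. Of the 14, only 6 had both Z/Z libraries below both WT libraries, against 10.5% of all genes tested. Tmtc1, an endoplasmic reticulum protein mannosyltransferase, had 945, 46.3, 75.3 and 90.7 CPM (edgeR log2 fold change -3.05 ± 0.396, adjusted p = 8.976e-11). A single cell of WT 1 held 61.3% of its 346 UMIs there, and WT 2 was not above the Z/Z libraries. For Ccl19, a chemokine of the T-cell zone, 1 cell of WT 1 held 93.3% of 194 UMIs, and the fold change went from -1.54 to 0.78 once the highest cells of each gene were left out. Ifit1, an interferon-induced gene, had 71.4% of its 70 UMIs in 1 cell of WT 1. All 46 UMIs of Kansl1l in WT 2 came from 1 cell, and WT 1, at 68.3 CPM, was level with Z/Z 1 at 69.3. The 5 named genes with the groups apart were Col1a2, Car2, Emb, Fn1 and Gm11906. In WT 2, 1 cell held all UMIs of Car2 (8), Emb (3), Fn1 (2) and Gm11906 (5). The highest cell of WT 1 held 56.25% of the UMIs of Car2 and 53.3% of those of Gm11906. For Emb, Fn1 and Col1a2 it held 23.4%, 16.7% and 13.5%. The collagen gene Col1a2 had 142 and 556 CPM in WT against 55.2 and 70.8 in Z/Z (-1.68 ± 0.426, edgeR adjusted p = 0.0164), and fibronectin, Fn1, had 197 and 92.6 against 57.2 and 64.6 (-1.59 ± 0.407, edgeR adjusted p = 0.0187). In WT 1 their UMIs came from 25 and 16 cells, but 1 cell of WT 2 held 91.7% of its 12 Col1a2 UMIs. Without WT 1 the log2 fold changes were -3.12 for Col1a2 and -0.57 for Fn1, and without WT 2 they were -1.18 and -1.69. Without cells that carried a Kcnj8 or Vtn UMI, Col1a2 was no longer called (-1.26, edgeR adjusted p = 0.3485), whereas Fn1 stayed called. With the stricter gate Fn1 was no longer called (edgeR adjusted p = 0.0521). Fibroblasts averaged 1169 and 398 CPM of these 2 genes before TMM normalisation. Ccn1 and P3h2 had 0 UMIs in WT 2, so that the direction came from WT 1 alone.

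Rgs5, the mural cell regulator of G-protein signalling, just missed the threshold. It had 3651 and 4306 CPM in WT against 1613 and 1356 for Z/Z (-1.41 ± 0.400, edgeR adjusted p = 0.0509). The groups were apart, as they were in this direction for 10.5% of all genes tested. WT 2 adds little to the Rgs5 difference, since 98.9% of its Rgs5 UMIs came from 1 of its 2 cells. In WT 1 the highest cell held 18.0%. Over the 15 alternatives the adjusted p for Rgs5 ran from 0.00871 to 1, and 4 of them called it.

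No contractile gene passed the test. Over all genes tested 0.594% were called higher and 0.203% lower, so that a list of this length would hold less than 1 call at these shares. Of the 25 tested without the gate genes, 1 had an unadjusted p under 0.05 in edgeR. Of the 25, 20 had a positive fold change and 5 a negative one, with a median of 0.40 where the median over all genes tested was 0.06. Among those with a mean of at least 50 CPM, Myl9 had the largest, at 0.94 ± 0.394 (edgeR adjusted p = 0.427). Calcium and ion channels (20 tested, median 0.03), vasoactive receptors (10, -0.16), transcription factors (21, 0.10), Notch genes (10, -0.13), integrins and adhesion molecules (18, 0.07), pericyte markers (15, 0.28) and metallothionein and glucocorticoid genes (10, 0.19) had 0 genes called in either direction by edgeR, and 1, 1, 4, 0, 2, 3 and 1 at an unadjusted p under 0.05. Vessel wall matrix had 2 of 33 lower, Col1a2 and Fn1, and 0 higher, with a median of -0.24. The list of the synthetic state, taken on by smooth muscle cells that divide and make matrix, had 1 higher (the chemokine Ccl2) and 1 lower (Fn1) of 13, with a median of 0.25. Ccl2 had 2, 0, 38 and 87 UMIs. Signals to epithelium and thymocytes had 1 of 23 lower (Ccl19), immediate early and stress genes 1 of 24 (Ccn1), and interferon and MHC class I genes 1 of 20 (Ifit1), each with 0 higher and with medians of -0.07, -0.01 and 0.16. The immediate early list summed to 27595, 23889, 21830 and 22629 CPM.

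For the lists of other cells, 4 of 14 fibroblast markers could be tested (median 0.09), 1 endothelial (0.35), 2 epithelial (1.32), 1 thymocyte (-0.18), 2 myeloid (-0.39), 2 cardiac (-0.01), 5 visceral smooth muscle (0.55) and 0 Schwann, mesothelial and skeletal myoid markers. None of these markers passed in edgeR, and the lists with tested genes had 1, 0, 1, 0, 1, 0 and 1 genes at an unadjusted p under 0.05, in that order.

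Whether the genotype difference was other in smooth muscle cells than in pericytes was asked with an interaction term over 8 sums, with library as a block. Of 5432 genes, 1 changed more upward in smooth muscle (0.0184%) and 4 more downward (0.0736%), 0.092% together. The reference is thin, since the WT pericytes number 4 and 1. Cryab, the small heat shock protein αB-crystallin, had 234, 234, 326 and 295 CPM in smooth muscle cells and 1371, 0, 119 and 69.3 CPM in pericytes (edgeR adjusted p = 0.00577). Its smooth muscle level was close in all 4 libraries, and the 1371 CPM rested on 40 UMIs in the 4 pericytes of WT 1. For Mid1, Gm12840, Plcxd3 and Mgat4e the fitted changes depended on pericyte sums of 0 to 2 UMIs in WT, so no fold is given. Leaving out either Z/Z library left 0 calls in this test.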

How the data were processed

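The deposited values were raw UMI counts per gene and barcode, which the authors made with Cell Ranger (version 7.01 per the labels) on mm10, GRCm38. The labels name v2 chemistry and the methods a v3 chip. Members and gene lists were chosen with earlier results of these data known. Of 32285 features, 98 ribosomal and haemoglobin features were left out. Counts of the smooth muscle cells were summed per library and tested between genotypes without covariates by edgeR 4.0.16 (R 4.3.3, TMM, quasi-likelihood F test). Pericyte sums were added for the interaction, with library as a block. Near-empty droplets had at most 100 UMIs. Named genes are the 12 with the smallest p in each direction among genes called, with a mean of at least 50 CPM and called after subtraction of near-empty droplet RNA, gate genes left out. Of these, 1 gene called lower, and 1 gene list, are not reported here. Scripts were tested on simulated data. Alternatives were DESeq2 1.42.0, its size factors, no filter on low counts, other gates, thinning, a replicate block and leaving out each library. Leaving out the highest cells of each gene, and allowing 1 UMI of each excluded gene, were chosen after seeing the data. Library totals were 29298450, 8468086, 50705511 and 41475499 UMIs. No doublets were removed for the main values.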

Additional observations from a re-analysis of the deposited data

Results flagged for a closer look

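The genotype difference differed between smooth muscle cells and pericytes for 5 genes by the interaction term in edgeR, and it rests on 4 pericytes in WT 1 and 1 in WT 2. UMIs are given for WT 1 and WT 2, followed by both Z/Z libraries. Mgat4e had 59, 0, 0 and 0 UMIs in smooth muscle cells and 0, 0, 24 and 0 in pericytes (edgeR adjusted p = 4.864e-05). Plcxd3 had 2, 9, 0 and 1 against 2, 0, 52 and 13 (edgeR adjusted p = 7.883e-05). Mgat4e was seen in 1 library of each class. Mid1 had 18, 18, 124 and 29 against 0, 0, 142 and 20 (edgeR adjusted p = 0.000288). Cryab, a small heat shock protein, had 104, 4, 635 and 297 against 40, 0, 51 and 8 (edgeR adjusted p = 0.005768). Gm12840 had 67, 36, 925 and 272 against 0, 0, 183 and 66 (edgeR adjusted p = 0.01883). For each of the 5 the adjusted p reached 1 in at least 1 alternative.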

How the results depend on the processing

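The mean share of smooth muscle cells was higher in Z/Z in every alternative run, although per endothelial cell WT 1 lay above both Z/Z libraries. The difference was 1.72 to 4.27 percentage points when 1 library was left out, but its p could not fall below 0.33. Against 41 higher and 14 lower genes, DESeq2 called 0 and 0, cells thinned to 3000 UMIs 5 and 2 (4123 genes tested; 5 and 1 of them among the 41 and 14), cells without a Kcnj8 or Vtn UMI 23 and 9 (18 and 5 of them), and the fit with a replicate block 5 and 0. By the labels, libraries with the same number shared only that number. The correlation of deviations (-0.049) cannot decide whether they shared more, since with 2 libraries per group the deviations mirror each other. The block left 189 genes at an unadjusted p under 0.05 in edgeR. Leaving out 1 library gave 0 to 60 higher and 0 to 36 lower genes: 20 and 17 without WT 1, 60 and 36 without WT 2, 0 and 0 without Z/Z 1 (67 genes at an unadjusted p under 0.05) and 0 and 2 without Z/Z 2 (114 such genes). The 5 interaction genes became 3 with no replicate block and 0 to 28 without 1 library. Fold changes turned positive for Kansl1l (0.13), Ifit1 (0.27) and Ccl19 (0.64) without Kcnj8 or Vtn cells, and for Ccl19 (0.78) without its highest cells. Leaving out 1 library moved them from -3.51 to 0.87 for Tmtc1, -4.58 to 0.35 for Kansl1l, -2.28 to 7.92 for Ifit1, -1.89 to 9.78 for Ccl19, -1.78 to 8.40 for Ccn1 and -1.58 to 9.07 for P3h2. The high ends against 0 UMIs in WT 2 depend on the prior count. The stricter gate ended the calls of Ccl11, Fn1, Ccn1, Emb, P3h2 and Gm11906. Other causes of these changes were not tested. The 2 cells of WT 2 limit all genotype comparisons.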
